A study of Mus musculus with 4 samples.

Results

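The genes described here make, break down and sense prostaglandins: the cyclooxygenases Ptgs1 and Ptgs2, the terminal synthases Ptges, Ptgis and Ptgds, the degrading enzyme Hpgd, and the receptors Ptger1, Ptger2, Ptger4 and Ptgfr. They were chosen by symbol, and all 10 are among the 23238 gene symbols of the count tables, each on a single row. RNA was sequenced from mouse (Mus musculus) cultures that carry the label cavernous endothelial cells. Such cells form the lining of the blood-filled spaces in the erectile tissue, and the cultures were grown from corpus cavernosum. Each culture received M199 medium that held 0.5 mg/ml heparin, 20% fetal bovine serum and antibiotics (1% penicillin and streptomycin), and glucose treatment lasted 72 hours. The groups were normal glucose (replicates 1 and 2) and high glucose (replicates 2 and 4). Their labels state no glucose concentration, osmotic control, mouse strain, sex or age, nor whether each replicate was a culture or an animal of its own. The p-values therefore reflect only how far these libraries differ, a spread that may be technical.

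Prostaglandins are short-lived lipid signals made from arachidonic acid, which phospholipases release from membranes. A cyclooxygenase turns it into prostaglandin H2, and a terminal synthase then sets the product: Ptges makes prostaglandin E2, Ptgis prostacyclin, and Ptgds prostaglandin D2. Ptgs1 is the constitutive cyclooxygenase and Ptgs2 the inducible one. The products leave the cell, act on G protein-coupled receptors and are inactivated by the dehydrogenase encoded by Hpgd. Prostaglandin E2, through receptors that raise cyclic AMP, relaxes the smooth muscle of the corpus cavernosum, and prostaglandin E1, which acts on the same receptors, is an injected treatment for erectile dysfunction.

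Library totals ran from 46571770 to 74971589 counts. Values are in CPM, the counts scaled to library size, after TMM scaling, which corrects that size for composition. Normal glucose replicate 2 stood apart from the others: across genes, its log2 CPM correlated with that of each other library at a Pearson r of 0.984 to 0.985, against 0.992 to 0.994 among the remaining 3. Results are therefore also given without it for those of the 10 genes that were tested and for some pathway genes. Of 12 endothelial markers, 7 had a mean under 1 CPM. The junction gene Cldn5 had no count in 3 of 4 libraries, Tek had a mean of 0.161 CPM, Pecam1 3.04 and Cdh5 5.25, while Esam (33.7) and Egfl7 (5.73) were the highest. None of 10 fibroblast markers had a mean under 1 CPM, from Dpt (2.83) and Postn (3.71) up to Col1a1 (1991) and Dcn (5962). Pericyte and smooth muscle markers were present, from Myh11 (1.24 CPM) and Cnn1 (3.05) to Acta2 (149.6) and Cspg4 (153.5). Macrophage markers ran up to 16.3 CPM for Cd68 and 25.3 for Lyz2, with Ptprc at 0.892 and Cd3e at 0.0206. Mast cell markers were near 0: Mcpt4 (0.183 CPM) and Kit (0.114) were the highest, Tpsb2 had 0.0106, and Fcer1a had no count. The highest epithelial and mesothelial markers were Krt18 (1.76 CPM) and Msln (0.978) and the lowest Krt14 (0.0182) and Krt5 (0.0107). Of those of Schwann cells and neurons, Tubb3 (13.2) was the highest and Sox10 (0.116) the lowest. The values below thus describe cultures with little RNA of the labelled cell type's defining markers. In such bulk samples, fewer cells of a type and less RNA per cell cannot be told apart.

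In normal glucose the 10 genes together took 0.702% (replicate 1) and 0.715% (replicate 2) of all counts, and in high glucose 0.945% (replicate 2) and 0.817% (replicate 4). Ptgs2 and Ptges supplied between 90.5% and 93.3% of those counts in each library. Levels of different genes were set side by side as CPM per kilobase of merged exons. On that scale Ptgs2 had a mean of 1015 ± 235 (SD over the 4 libraries) and ranked 50 of 22197 genes with a known length. Ptges, the inducible prostaglandin E synthase, had 769.9 ± 60.7 and ranked 68. Ptgs1 followed at 130.7 ± 18.3 and Ptgis at 95.6 ± 21.98, ranks 424 and 587. Below them came a gap of 34.7-fold between the means of Ptgis and Ptger1.

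Every receptor was far lower than these 4 enzymes. Ptger1, the receptor EP1, had 2.75 ± 0.671 CPM per kilobase, Ptger2, the receptor EP2, 2.01 ± 0.750, Ptgfr, the prostaglandin F receptor, 1.346 ± 0.159, and Ptger4, the receptor EP4, 1.11 ± 0.466. Over the libraries, the range of each receptor overlapped that of the next in this order, while Ptger1 (2.02 to 3.52) lay wholly above Ptgfr (1.14 to 1.49) and Ptger4 (0.775 to 1.80). The same holds for Ptgs1 and Ptgis, although Ptgs1 was the higher of the pair in 4 of 4 libraries. Ptgs2 and Ptges did not overlap, at 835 to 1355 and 682 to 818 CPM per kilobase. Hpgd, the first enzyme of prostaglandin breakdown, had 0.317 ± 0.117 CPM per kilobase, below Ptger4 in every library. Ptgds, the lipocalin-type prostaglandin D synthase, had 0 counts in 3 libraries and 4 counts in high glucose replicate 2 (95% exact Poisson interval 1.09 to 10.2 counts, counting error only).

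**Figure D1:**
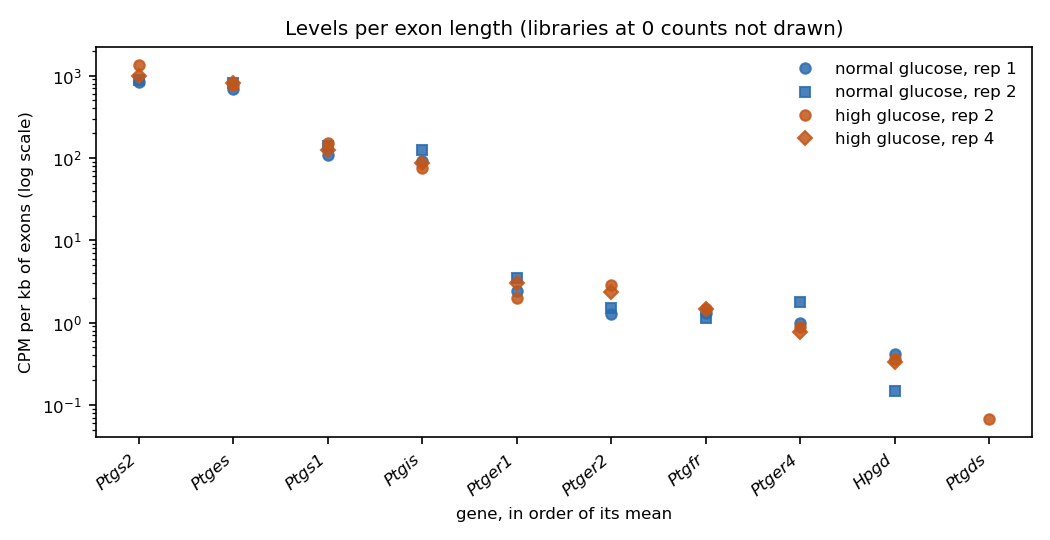
Level of each gene per exon length in each library, as CPM per kilobase on a log axis, with genes in order of their mean over 4 libraries; libraries at 0 counts are not drawn. Ptgs2 and Ptges lie between 682 and 1355, Ptgs1 and Ptgis between 75.2 and 151, the 4 receptors between 0.775 and 3.52, and Hpgd and Ptgds below them.

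The comparison of high with normal glucose addresses the study's stated question of how transcription differs between both conditions. None of the genes passed an adjusted p of 0.05. Ptger2 was higher in both high glucose libraries by a fitted 1.89-fold (95% interval 1.30 to 2.73), the largest difference in either direction among the 9 genes that could be tested. In both high glucose libraries Ptgs2 and Ptgfr also exceeded their normal values, and Ptgis and Ptger4 lay below them. Ptgs1, Ptges, Hpgd and Ptger1 overlapped between the groups.

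The test was edgeR's quasi-likelihood test, with Benjamini-Hochberg adjustment over all 16270 genes that passed its filter on low counts. Called genes made up 0.0123% of them (2 genes, both higher and neither one of the 10), and 887, or 5.45%, had an unadjusted p under 0.05. Among the prostaglandin genes 9 passed the filter and Ptgds did not. Of those 9, 0 were called in the quasi-likelihood test, and 1, Ptger2, had an unadjusted p under 0.05, on the higher side, where 2.22% of all genes lay (3.23% on the lower). DESeq2, which called 0.379% of all genes, and edgeR's exact test, which called 0.688%, called 0 of them too. Without normal glucose replicate 1 the quasi-likelihood test called 3 of them, beside 16.2% of all genes tested, and without normal glucose replicate 2 it called 1, beside 0.787%. Groups did not overlap for 5 of the 9, 3 higher and 2 lower in high glucose, against 32.5% of all genes tested, 16.3% higher and 16.2% lower. The median log2 fold change of the 9 was 0.16, with 6 above 0 and 3 below, against 0.00 (-0.0045 before rounding) over all genes tested. The summed endothelial markers were 51.1 and 67.1 CPM in normal and 43.9 and 47.4 CPM in high glucose, lower in both high glucose libraries. Esam made that difference: the other 11 summed to 17.8 and 21.0 against 18.2 and 17.5 CPM and overlapped, with Pecam1 lower and Kdr higher in both high glucose libraries. Summed fibroblast markers (9389 and 11376 against 11336 and 10334 CPM), pericyte and smooth muscle markers (537 and 753 against 539.8 and 549 CPM) and macrophage markers (80.8 and 89.3 against 97.1 and 87.5 CPM) overlapped. Summed Schwann cell and neuronal markers were lower in both (23.6 and 24.9 against 17.4 and 16.7 CPM) through Tubb3, and the other 5 overlapped (8.84 and 5.46 against 8.11 and 7.42 CPM). Mast cell markers (0.366 and 0.482 against 0.691 and 0.232 CPM) and epithelial and mesothelial markers (4.72 and 3.35 against 3.22 and 3.42 CPM) overlapped. The part of these cell types in the differences below was not tested.

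**Figure D2:**
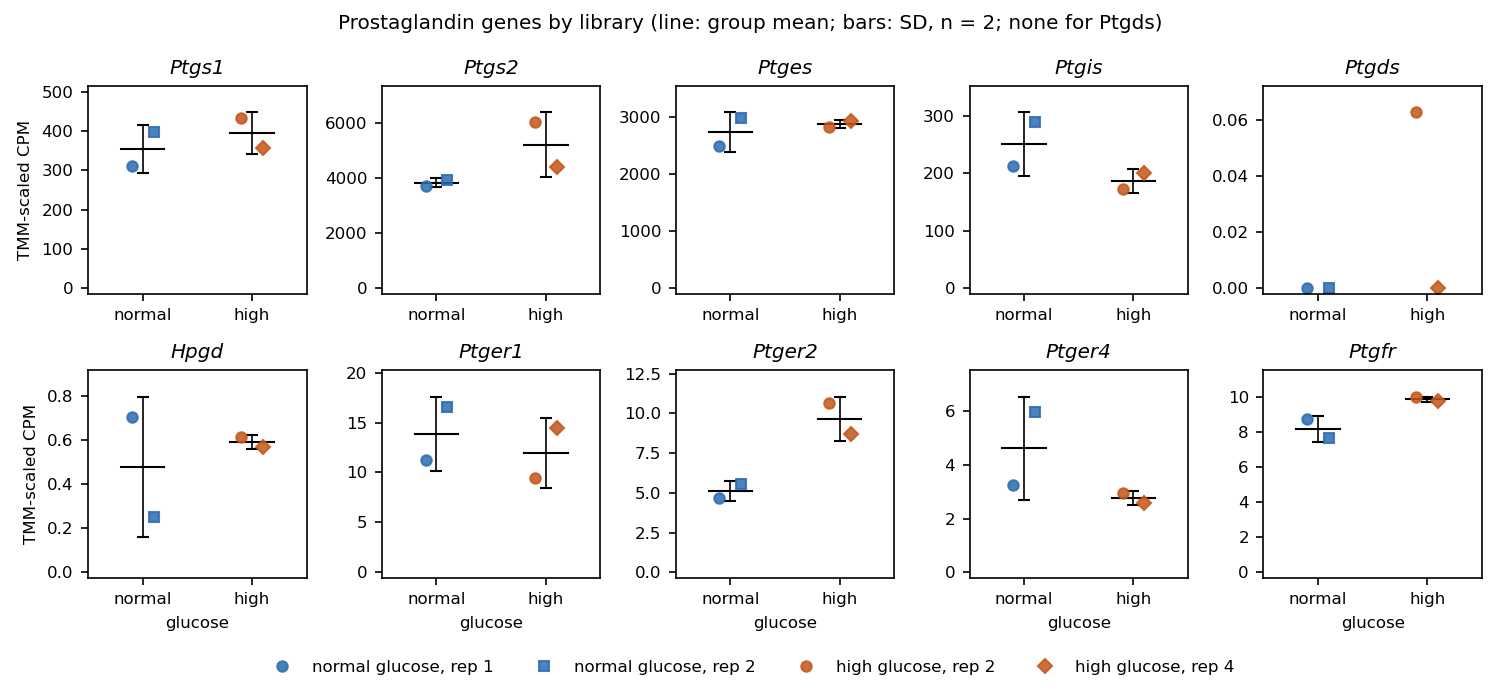
TMM-scaled CPM of each gene in each library, by glucose group, with the group mean as a line and the SD (n = 2) as bars; each panel has its own linear axis from 0. The groups are apart for Ptgs2, Ptger2 and Ptgfr (higher in high glucose) and for Ptgis and Ptger4 (lower), and overlap for the rest.

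Among the cyclooxygenases, Ptgs2 (chromosome 1, 150100031 to 150108227, GRCm38) had 3720 CPM in replicate 1 and 3935 CPM in replicate 2 of normal glucose, and 6033 CPM in replicate 2 and 4382 CPM in replicate 4 of high glucose. Values of each group are given in this order of replicates throughout. Both high glucose libraries lay above both normal ones, but high glucose replicate 2 supplied most of the gap, and the high glucose libraries differed from each other by more than replicate 4 differed from the normal group. The fitted log2 fold change was 0.44 (SE 0.20, 95% interval -0.014 to 0.90, unadjusted p = 0.0560, adjusted p = 0.928, edgeR). Without high glucose replicate 2 it was 0.21, and without replicate 4 it was 0.66. Ptgs1 (chromosome 2, 36230426 to 36252272) had 310 and 397 CPM in normal and 432 and 358 CPM in high glucose. These groups overlapped, with a log2 fold change of 0.16 (SE 0.20). The 95% interval, -0.31 to 0.63, is wide enough to hold both no difference and one as large as that of Ptgs2.

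A ratio of genes within a library does not depend on scaling. Per exon length, Ptgs2 over Ptgs1 was 7.72 and 6.38 in normal and 8.99 and 7.88 in high glucose. The groups did not overlap, but the gap between them, from 7.72 to 7.88, was smaller than the spread within either group.

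Of the terminal synthases, Ptges (chromosome 2, 30889471 to 30929863) had 2488 and 2982 CPM in normal and 2835 and 2926 CPM in high glucose. The high glucose libraries lay between the normal ones, and the log2 fold change was 0.07 (SE 0.18, 95% interval -0.33 to 0.48). This interval holds folds from 0.794 to 1.40, so a change of 2-fold in either direction lies outside it. Ptgis (chromosome 2, 167191805 to 167240604), the prostacyclin synthase, had 212 and 290 CPM in normal and 172 and 201 CPM in high glucose. Both high glucose libraries were lower, by a log2 fold change of -0.43 (SE 0.21, unadjusted p = 0.0784, adjusted p = 0.948, edgeR). The difference was -0.18 without normal glucose replicate 2 and -0.63 without normal glucose replicate 1, where it was called (adjusted p = 0.0113), as were 16.2% of all genes tested in that setting. Ptges over Ptgis, per exon length, was 7.37 and 6.46 in normal and 10.3 and 9.13 in high glucose, without overlap. Ptges over Ptgs2 went the other way, with 0.817 and 0.925 in normal and 0.574 and 0.815 in high glucose, apart only narrowly. These ratios have no test, and the groups did not overlap for 32.5% of all genes tested.

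Hpgd (chromosome 8, 56294585 to 56321043) had 50 and 11 counts (normal) against 39 and 44 counts (high), or 0.704 and 0.252 against 0.612 and 0.567 CPM. Its normal glucose libraries differed more from each other than the groups did, and the 95% interval of the log2 fold change ran from -1.0 to 1.52. With these libraries a difference of 2-fold either way could not be resolved for Hpgd.

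Upstream sequences are shown for Ptgs2, the highest of the 10 genes, and for Ptger2 and Ptger4, the receptors that lay furthest apart in their differences between the groups. Each is the 250 bases before the annotated start, 5′ to 3′ on the gene's strand, from RefSeq on GRCm38.p6; 8 of the 10 genes had an entry. Capitals mark matches on either strand to a GC box (GGGCGG) or a C/EBP motif (TTGCNNAA).
Ptgs2, chr1:150099781-150100030, plus strand: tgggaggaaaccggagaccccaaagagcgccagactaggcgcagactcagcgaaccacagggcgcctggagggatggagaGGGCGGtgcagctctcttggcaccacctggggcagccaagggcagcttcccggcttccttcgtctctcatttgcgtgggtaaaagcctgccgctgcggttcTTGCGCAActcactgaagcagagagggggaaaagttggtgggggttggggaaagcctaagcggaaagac
Ptger2, chr14:44987861-44988110, plus strand: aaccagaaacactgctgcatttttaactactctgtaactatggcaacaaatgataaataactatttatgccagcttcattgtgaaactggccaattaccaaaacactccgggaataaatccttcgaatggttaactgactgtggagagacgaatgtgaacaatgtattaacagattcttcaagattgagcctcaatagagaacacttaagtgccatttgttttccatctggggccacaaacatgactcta
Ptger4, chr15:5244188-5244437, minus strand: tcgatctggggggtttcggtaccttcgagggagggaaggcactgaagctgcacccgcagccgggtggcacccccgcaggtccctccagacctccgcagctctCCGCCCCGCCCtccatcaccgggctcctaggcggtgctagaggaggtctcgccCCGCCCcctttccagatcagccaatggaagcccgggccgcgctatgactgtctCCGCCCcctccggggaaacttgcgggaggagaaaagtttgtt
The Ptgs2 window held 1 GC box and 1 C/EBP match, the Ptger4 window 4 GC boxes, a pair of which share a base, and the Ptger2 window neither. GC boxes were in 32.7% of all 32851 windows of this length, and the C/EBP motif in 9.56%. The TATA box (TATAAA), the cyclic AMP response core (TGACG), the E-box (CACGTG), the AP-1 motif (TGANTCA) and the NF-kB motif were searched as well and matched none of these 3 windows; they were in 12.4%, 17.8%, 6.02%, 6.75% and 7.25% of all windows. G and C made up 61.6% of the Ptgs2 window, 66.8% of the Ptger4 window and 38.0% of the Ptger2 window, against a median of 52.4% over all windows. A match describes letters only, and the absence of one holds for these 250 bases only. Bases past the annotated start were not searched.

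The receptors that signal through cyclic AMP lay on opposite sides. Ptger2 (chromosome 14, 44988195 to 45003820) had 4.69 and 5.57 CPM in normal and 10.7 and 8.68 CPM in high glucose, from 333 and 243 against 679 and 673 counts. Both high glucose libraries stood clear of both normal ones, and the gap was wider than the spread within either group. The log2 fold change was 0.92 (SE 0.23, 95% interval 0.38 to 1.45, unadjusted p = 0.00411, adjusted p = 0.507, edgeR). Over the 14 other settings it stayed between 0.77 and 1.06. It was 0.79 without normal glucose replicate 1 and 1.04 without normal glucose replicate 2. Adjusted p was 0.127 in DESeq2, 0.0927 in edgeR's exact test and 0.508 in limma-voom. Ptger2 overlaps the antisense genes Gm49364 and Gm17173, and 4.22% of its 32-base stretches occur in other genes' transcripts.

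Ptger4 (chromosome 15, 5206661 to 5244187) had 3.27 and 5.99 CPM in normal and 2.97 and 2.58 CPM in high glucose, from 232 and 261 against 189 and 200 counts. The groups were apart only narrowly, since normal glucose replicate 1 lay just above the high glucose libraries and replicate 2 well above them. Its log2 fold change was -0.73 (SE 0.33, 95% interval -1.48 to 0.018, unadjusted p = 0.0547, adjusted p = 0.923, edgeR). Leaving out normal glucose replicate 2 gave -0.24, and leaving out replicate 1 of that group gave -1.11. Ptger4 overlaps the antisense genes Ttc33 and Gm15937 and has 15.2% of its 32-base stretches in common with them and other transcripts. Per exon length, Ptger2 over Ptger4 was 1.30 and 0.841 in normal and 3.24 and 3.04 in high glucose, so Ptger2 was near Ptger4 in normal glucose and about 3 times as high in high glucose. This ratio was formed after the values were seen and has no test.

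Neither calcium-linked receptor stood clearly apart. Ptgfr (chromosome 3, 151796502 to 151837630) had 8.70 and 7.66 CPM in normal and 9.97 and 9.76 CPM in high glucose, higher in both, with a log2 fold change of 0.27 (SE 0.21, unadjusted p = 0.238, adjusted p = 0.991, edgeR). Ptger1 (chromosome 8, 83666678 to 83672753) had 11.3 and 16.5 CPM in normal and 9.48 and 14.4 CPM in high glucose. These groups overlapped, and the log2 fold change of -0.21 (SE 0.28) turned to 0.09 without normal glucose replicate 2 and to 0.07 without high glucose replicate 2. Of its 32-base stretches, 66.2% also occur in transcripts of other genes, and whether the counting used strand is not given in the sources used here, so the level of Ptger1 is uncertain.

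Without normal glucose replicate 2, the library that stood apart, the log2 fold changes were 0.48 for Ptgs2, 0.35 for Ptgs1, 0.21 for Ptges, -0.26 for Hpgd, 1.04 for Ptger2 and 0.18 for Ptgfr. Hpgd was the only one of these 6 to change side. Of the genes given above, Ptger1 also changed side (0.09), while Ptgis and Ptger4 kept theirs.

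**Figure D3:**
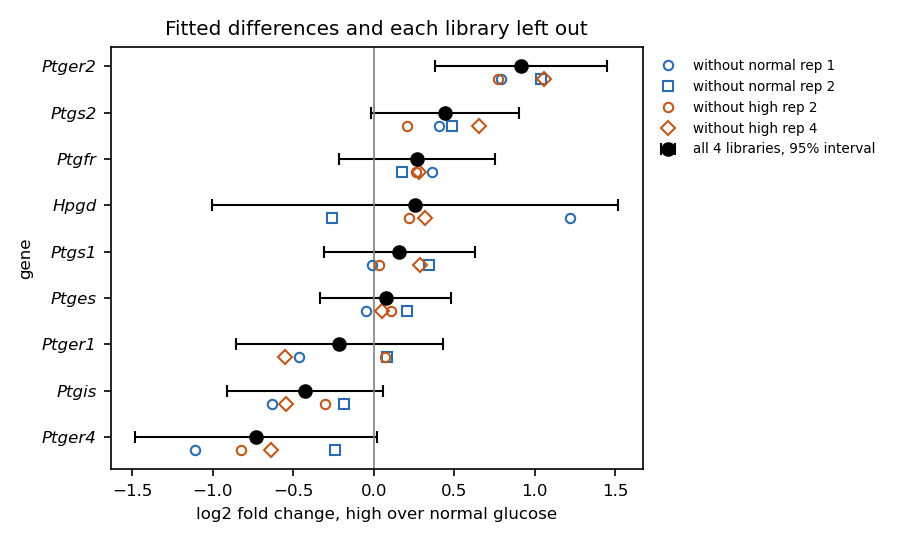
Fitted log2 fold change of the 9 tested genes, high over normal glucose, with the 95% interval from all 4 libraries (filled points) and the value with each library left out (open points). Ptger2 is the only one whose interval lies clear of 0, and Hpgd, Ptges, Ptgs1 and Ptger1 cross 0 when a library is left out.

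The other genes of the pathway were taken as 7 lists of 79 genes, all present in the files, of which 73 were tested. None passed an adjusted p of 0.05 over all genes tested (lowest 0.158, edgeR's quasi-likelihood test). Unadjusted p lay under 0.05 for 12 of them, 9 higher and 3 lower, or 16.4% against 5.45% of all genes tested (2.22% higher and 3.23% lower). Without normal glucose replicate 1, 17 pathway genes were called, beside 16.2% of all genes tested, and without replicate 2, 3 were, beside 0.787%. The lists were drawn up with earlier results of these libraries known, Il6 and Akr1b3 among them, so this share is a description.

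In the list of arachidonate release, 6 of 16 tested genes were above 0 and 10 below (median -0.08), and 0 were called. Pla2g4a, the cytosolic phospholipase A2 that frees arachidonic acid, had 279 and 198 CPM in normal and 357 and 325 CPM in high glucose (log2 fold change 0.51, unadjusted p = 0.0412, adjusted p = 0.902, edgeR). Its normal glucose replicate 1 lay nearer to the high glucose libraries, and without that replicate the log2 fold change was 0.78. The secreted phospholipase Pla2g2e was lower in both high glucose libraries, with 13.9 and 25.1 against 11.8 and 11.5 CPM, as was the lysosomal phospholipase Pla2g15 (48.1 and 57.4 against 41.4 and 40.3 CPM). The gap of Pla2g2e rested mostly on normal glucose replicate 2, with a log2 fold change of -0.74, and -1.11 without normal glucose replicate 1. Pla2g2d was under 1 CPM in every library, with 0.225 and 0.344 against 0.706 and 0.554 CPM.

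All 7 other prostanoid synthases were above 0 (median 0.19, lowest 0.04 for Ptges3), beside 8011 of all 16270 genes tested. Groups did not overlap for 42.9% of the 7, beside 32.5% of all genes tested, and 0 of the 7 were called. The largest difference was that of Akr1b3, aldose reductase, which can also form prostaglandin F2alpha, with 16.9 and 12.3 against 26.7 and 27.0 CPM (log2 fold change 0.88, unadjusted p = 0.00371, adjusted p = 0.506, edgeR). Ptges2, a second prostaglandin E synthase, had 16.6 and 21.2 against 21.97 and 21.4 CPM, Cbr1, a carbonyl reductase that acts on prostaglandins, 22.6 and 20.3 against 23.3 and 24.1 CPM, and Fam213b, a prostamide and prostaglandin F synthase, 3.77 and 2.57 against 2.95 and 4.32 CPM. Per exon length Ptges was between 176 and 205 times as high as Ptges2 and between 17.6 and 21.5 times as high as Ptges3, the cytosolic prostaglandin E synthase. The ratio to Ptges2 was lower in both high glucose libraries (205 and 192 against 176 and 187), and that to Ptges3 overlapped. Hpgds, the hematopoietic prostaglandin D synthase, and Tbxas1, the thromboxane synthase, were under 1 CPM in every library, Hpgds between 0.0903 and 0.408 and Tbxas1 between 0.229 and 0.676 CPM.

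Of the 5 other prostanoid receptors 4 were tested, 3 above 0 and 1 below (median 0.52), and 0 were called. Ptgir, the prostacyclin receptor, had 10.1 and 15.2 CPM in normal and 18.7 and 17.99 CPM in high glucose (log2 fold change 0.54, unadjusted p = 0.0555, adjusted p = 0.926, edgeR). It was higher in both high glucose libraries, as were 16.3% of all genes tested. Ptgis, which makes its ligand, was lower in both, as were 16.2% of all genes tested. Without normal glucose replicate 2 the log2 fold change was 0.86 for Ptgir and -0.18 for Ptgis. This pairing of genes has no test. Ptgdr2, a prostaglandin D receptor that overlaps Ccdc86 on the other strand, had 0.944 and 0.665 against 1.59 and 1.19 CPM. Ptger3, the receptor EP3, lay between 0.204 and 0.567 CPM and Tbxa2r, the thromboxane receptor, between 0.380 and 0.734 CPM, both overlapping.

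Among 5 genes of transport and breakdown, 2 were above 0 and 3 below, 0 were called, the median was -0.04, and the transporters lay on opposite sides of 0. Abcc4, an efflux pump that exports prostaglandins, had 70.5 and 83.4 CPM in normal and 118 and 134 CPM in high glucose (log2 fold change 0.71, unadjusted p = 0.00465, adjusted p = 0.519, edgeR). The log2 fold change of Abcc4 was 0.60 without normal glucose replicate 1 and 0.84 without normal glucose replicate 2. Slco2a1, which takes prostaglandins up for breakdown, had 92.5 and 159 against 86.4 and 79.8 CPM (log2 fold change -0.60, unadjusted p = 0.0476, adjusted p = 0.913, edgeR). Its gap rested mostly on normal glucose replicate 2. Ptgr1, a prostaglandin reductase, had 36.9 and 22.2 against 39.8 and 39.8 CPM, and Ptgfrn, a membrane protein that binds the prostaglandin F receptor, 170 and 162 against 147 and 159 CPM.

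In the lipoxygenase and leukotriene branch, the other main route from arachidonic acid, 7 of 13 genes had a mean under 1 CPM. Lta4h, the leukotriene A4 hydrolase, was the highest, with 87.0 and 93.6 against 103 and 85.7 CPM. Of 10 tested, 6 were above 0 and 4 below (median 0.09), and 0 were called, with the lowest adjusted p at 0.991. The leukotriene B4 receptors Ltb4r1 (0.408 and 0.505 against 0.738 and 0.580 CPM) and Ltb4r2 (0.197 and 0.528 against 0.392 and 0.567 CPM) were among the low genes, with the lipoxygenase Alox12 (1.72 and 1.42 against 1.37 and 1.199 CPM) and the cysteinyl leukotriene receptor Cysltr1 (2.06 and 2.00 against 2.57 and 2.27 CPM) somewhat higher. Alox5, the enzyme that starts leukotriene synthesis, lay between 2.57 and 3.50 CPM.

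Inducers and mRNA regulators of Ptgs2 gave 7 of 19 genes above 0 and 12 below (median -0.09), and 0 were called. Il6, a cytokine, had 15.2 and 14.6 CPM in normal and 41.0 and 38.3 CPM in high glucose (log2 fold change 1.41, adjusted p = 0.158, edgeR); DESeq2 called it (adjusted p = 6.8e-07), as did edgeR's exact test (adjusted p = 1.3e-06). Il1a, which encodes interleukin-1 alpha, a cytokine that induces Ptgs2 in many cells, had 7.0 and 4.93 against 10.4 and 9.34 CPM (unadjusted p = 0.0180). Celf2, an RNA-binding protein that binds Ptgs2 mRNA and limits its translation, had 39.3 and 42.9 against 25.0 and 23.9 CPM (log2 fold change -0.75, unadjusted p = 0.00333, adjusted p = 0.506, edgeR), lower in both. Tsc22d3, a glucocorticoid-induced regulator, had 18.3 and 20.4 against 14.99 and 13.3 CPM.

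Among 12 genes of the cyclic AMP response, which EP2 and EP4 set off, 8 were above 0 and 4 below (median 0.19), 0 were called, and 4 had an unadjusted p under 0.05, all higher. The 12 include the cyclic AMP sensors Rapgef3 and Rapgef4, which are among the 8. Those under 0.05 were the cyclic AMP phosphodiesterases Pde4b (81.0 and 83.3 against 137 and 113 CPM) and Pde4d (39.1 and 45.6 against 61.5 and 64.3 CPM), the growth factor Ereg (620 and 563 against 831 and 781 CPM) and the transcription factor Crem (13.1 and 6.51 against 17.2 and 15.8 CPM), with adjusted p from 0.642 to 0.913 (edgeR). The gap of Crem rested mostly on normal glucose replicate 2. Its log2 fold change was 0.74, and 1.34 without normal glucose replicate 1. Groups did not overlap for 4 of the 12 (33.3%), all higher, against 32.5% of all genes tested (16.3% higher). These were the same 4, picked by their p, in each of which both high glucose libraries lay above both normal ones. The immediate early genes of the list did not share this: Nr4a1 had 21.96 and 36.2 against 33.1 and 34.6 CPM and Nr4a2 212 and 314 against 250.03 and 307 CPM, overlapping, and Per1 had 28.4 and 52.7 against 30.5 and 34.7 CPM. The other genes of the list, Nr4a3, Sik1, Areg, Rapgef3 and Rapgef4, overlapped as well. Areg had 200 and 245 against 177 and 208 CPM (log2 fold change -0.21). Nr4a1, Nr4a2, Per1 and Areg were picked after their values were seen.

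**Figure D4:**
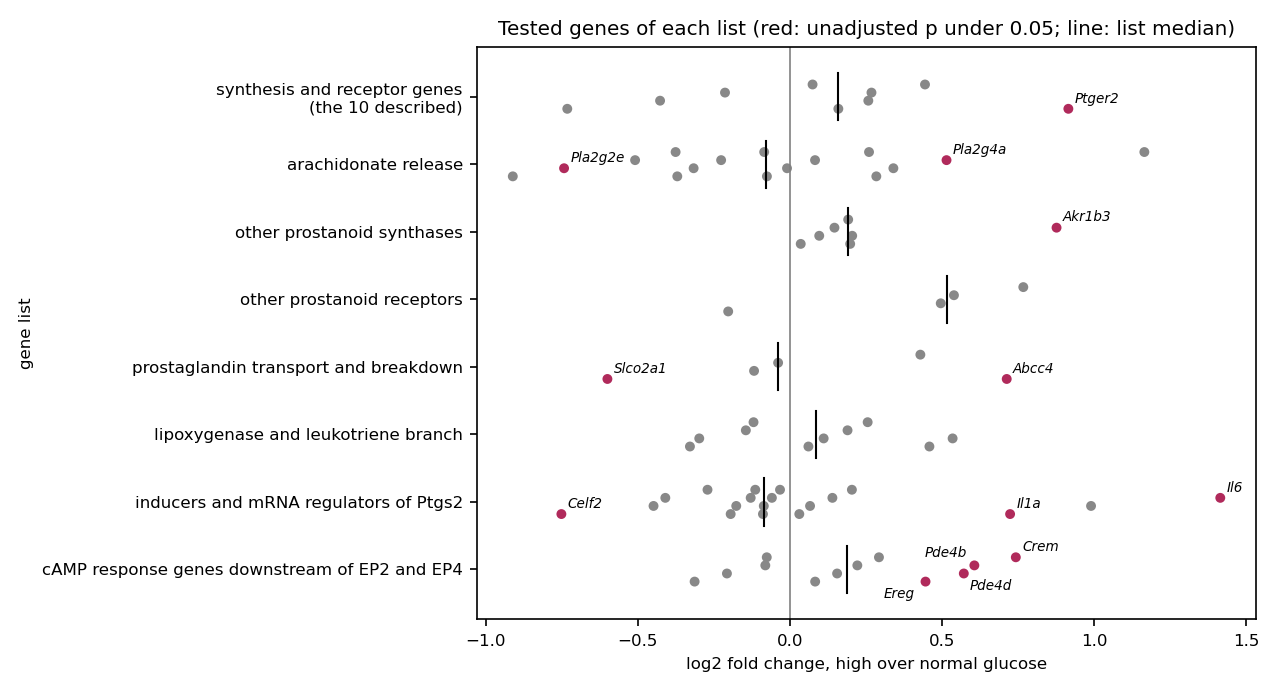
Log2 fold change, high over normal glucose, of each tested gene of the 10 described and of the 7 other pathway lists; red points have an unadjusted p under 0.05 and black lines are list medians. Il6 is furthest to the right and Pla2g4a, Abcc4, Il1a, Akr1b3 and the 4 cyclic AMP response genes lie above 0, with Pla2g2e, Slco2a1 and Celf2 below 0.

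Likeness to Ptger2, the gene with the smallest p of the 10, was measured as the distance between log2 CPM centred on each gene's mean over the 4 libraries, among 10436 genes of at least 5 CPM. The nearest was Sfrp4, a secreted Wnt antagonist, at 0.101 log2 units, with 14.3 and 16.4 CPM in normal and 30.2 and 24.2 CPM in high glucose. Tgm3, a transglutaminase, followed at 0.102 (18.2 and 22.5 against 38.9 and 33.0 CPM), and Cxcl1, a chemokine, at 0.145 (96.2 and 115 against 199.6 and 187 CPM). With 4 libraries, such likeness is a description only.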

How the data were processed

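The authors deposited whole-number counts per gene symbol, 1 table per library. Per the submitters' processing notes, TopHat, edgeR and the mouse build mm10 were used; how reads were counted (tool, gene models, strand, reads with several matches) is not given in the sources used here. Rows that share a symbol (35 symbols, none of the 10) were summed. The main test was edgeR 4.0.16's quasi-likelihood test (limma 3.58.1, R 4.3.3) with TMM scaling, filterByExpr and the group as only term, two-sided, on all 4 libraries, with Benjamini-Hochberg adjustment over all 16270 genes tested and a threshold of 0.05. Folds with an interval are from that fit. The common biological coefficient of variation was 20.0%. The procedure was also run on simulated counts in which all genes shared that coefficient, so its behaviour with the spread of these libraries was not tested. Between each pair of libraries the chi-square per degree of freedom, against sampling noise, was at least 66.6, so none is a repeat deposit. With at least 46571770 counts per library, counting error is small for 8 of the 10 genes but not for Hpgd and Ptgds, nor for the pathway and marker genes under about 1 CPM. Exon lengths and positions are from GENCODE vM21 basic (GRCm38, the assembly also called mm10), where 22197 of 23238 symbols matched. The genes and lists were chosen with earlier results of these data known. All 10 genes were named, with the 4 smallest p of each pathway list, the highest 2 and lowest 2 of each marker list with Pecam1, Cdh5, Dcn and Ptprc, and the 3 genes most like the one with the smallest p; other names were added after values were seen. A few genes that this rule takes are not reported here. Alternatives were 3 scalings, 2 filters, limma-voom, edgeR's exact test, DESeq2 1.42.0, unsummed rows, omission of the ribosomal RNA precursor Rn45s, a threshold of 0.1 and leaving out each library.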

Additional observations from a re-analysis of the deposited data

How the results depend on the processing

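No paired analysis was possible because number 2 is the sole replicate number found in both groups. Over the 14 refits, 116 of 125 log2 fold changes of the tested prostaglandin genes kept their direction and their side of the threshold; 5 changed sign and 4 came to pass it, all 9 on leaving out a library. Without normal glucose replicate 1, Ptgs1 and Ptges turned negative while Ptgis (-0.63), Ptger2 (0.79) and Ptger4 (-1.11) passed. Without normal glucose replicate 2, Hpgd turned negative and Ptger1 positive, and Ptger2 (1.04) passed; Ptger1 was also positive (0.07) without high glucose replicate 2. The ranges over the 4 libraries left out were -0.0074 to 0.35 for Ptgs1, -0.0495 to 0.21 for Ptges, -0.63 to -0.18 for Ptgis, -0.26 to 1.22 for Hpgd, -0.55 to 0.0858 for Ptger1, 0.77 to 1.06 for Ptger2 and -1.11 to -0.24 for Ptger4. Leaving out a library leaves a group with 1 sample, assumed to vary like the other group. Across those 4 fits the number of the 10 genes called ran from 0 to 3, of pathway genes from 0 to 17 and of all genes from 35 to 2708. Genes called numbered 65 with DESeq2, 112 with edgeR's exact test and 127 with no filter on low counts, against 2 in the main test. In each of these 3 settings 1 pathway gene, Il6, was called. The cause was not tested. Other scalings moved the median of all genes by less than 0.1 on the log2 scale. Taking the longest transcript in place of merged exons, chosen after seeing the data, kept the order of the levels. Without a filter Ptgds entered the test, but its level stayed at 4 counts in all.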
